A study of Mus musculus with 2 samples.

Results

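Mir126a and Mir126b are a pair of miRNA genes that lie on opposite strands of the same stretch of mouse chromosome 2, inside the gene Egfl7. They were taken by name, as 2 of the 2202 miRNA genes counted, and not by their level. MicroRNA-seq, which sequences small RNA, was made from adrenal glands of male B6CASTF1/J mice, an F1 hybrid, at postnatal day 14. The labels give 1 group of 2 libraries, biological replicates 1 and 2, with no treatment and no other genotype, so no conditions can be compared. Each library comes from its own biosample, whose label names 3 males, and both name the same donor record. The sources used here do not say whether a library pools animals, and the spread between the libraries may be partly technical. The sample description names adrenals and no separated part or cell type. A level is therefore read as that of a mixture, which can hold cortex, medulla, vessels and blood. In such a mixture fewer cells of a type and less RNA per cell cannot be told apart.

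A miRNA gene is transcribed as a longer RNA that folds into a hairpin. The enzymes Drosha and Dicer cut the hairpin to a short duplex, and an arm of it, the mature miRNA, is loaded into an Argonaute protein. There its bases 2 to 8, the seed, pair with target mRNAs. miR-126 is known as the miRNA of endothelial cells, the lining of blood vessels, and is also made by blood progenitors and megakaryocytes. In endothelial cells its 3p arm lowers Spred1 and Pik3r2, inhibitors of signalling by the growth factor VEGF, and its host gene Egfl7 encodes a protein that these cells secrete. The adrenal gland is densely supplied with thin-walled vessels that carry blood from cortex to medulla.

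Mir126a (ENSMUSG00000065540.1) spans chr2:26591357-26591429 on the plus strand of mm10, 73 bases. Mir126b (ENSMUSG00000105799.1) spans chr2:26591363-26591420 on the minus strand, 58 bases, and so lies wholly within the span of Mir126a. Of Mir126a, 6 bases at its 5′ end and 9 at its 3′ end extend beyond Mir126b. The sequences below, from RefSeq on GRCm38.p6, show why reads of the pair can be told apart only by strand. In the hairpins the capitals mark the mature miRNAs that the table lists.
Mir126a hairpin: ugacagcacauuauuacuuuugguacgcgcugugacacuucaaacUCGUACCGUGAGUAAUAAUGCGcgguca
Mir126b hairpin: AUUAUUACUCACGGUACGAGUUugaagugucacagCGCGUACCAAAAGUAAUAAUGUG
All 58 bases of the Mir126b hairpin are the reverse complement of the middle of the Mir126a hairpin. By RNAfold the Mir126a hairpin folded at -31.2 kcal/mol with 27 base pairs, and the Mir126b hairpin at -19.3 kcal/mol with 21. Both strands of the locus therefore have a predicted hairpin fold, with a lower energy for Mir126a.

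The mature miRNAs are shown next, because their seeds set which mRNAs each could pair with. Here the capitals mark the seed.
miR-126a-3p: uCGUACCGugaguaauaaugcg
miR-126b-3p: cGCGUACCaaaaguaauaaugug
miR-126b-5p: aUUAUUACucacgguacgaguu
miR-126a-3p lies at chr2:26591402-26591423, bases 46 to 67 of its hairpin, and the other arm of Mir126a gives miR-126a-5p. miR-126b-3p lies at chr2:26591363-26591385, opposite the 5′ arm of Mir126a, and miR-126b-5p at chr2:26591399-26591420, opposite the 3′ arm. In an ungapped alignment miR-126a-3p and miR-126b-3p had the same base at 17 of 22 positions, shifted by 1 base. Their seeds shared a run of 6 bases, CGUACC, but were not the same 7-base seed. Of 1679 mature miRNA names in the table, 0 others had the seed of any of these 3 mature miRNAs, and the run CGUACC stood in the seeds of 2 names, those of miR-126a-3p and miR-126b-3p. The table has no row for miR-126a-5p, so its seed was not searched, and these counts hold among the names listed. On the opposite strand, miR-126b-5p covers 19 positions of miR-126a-3p.

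Egfl7, a protein-coding gene on the plus strand at chr2:26580014-26593120, hosts the locus. GENCODE M21 lists 19 Egfl7 transcripts, of which 8 have Mir126a in an intron, 1 has it in an exon and 10 do not span it. In the 4 transcripts with 10 exons it lies in intron 7. The exon is the 4th of Egfl7-206, a transcript annotated as a retained intron, and that was the only Egfl7 transcript whose sequence held miR-126a-3p. A second plus-strand gene, Gm20532, also has Mir126a in an intron. Of 3 start sites of Egfl7 in RefSeq, the nearest lies 4721 bases before Mir126a and the farthest 10274. Mir126a runs in the direction of its host and Mir126b against it.

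**Figure D1:**
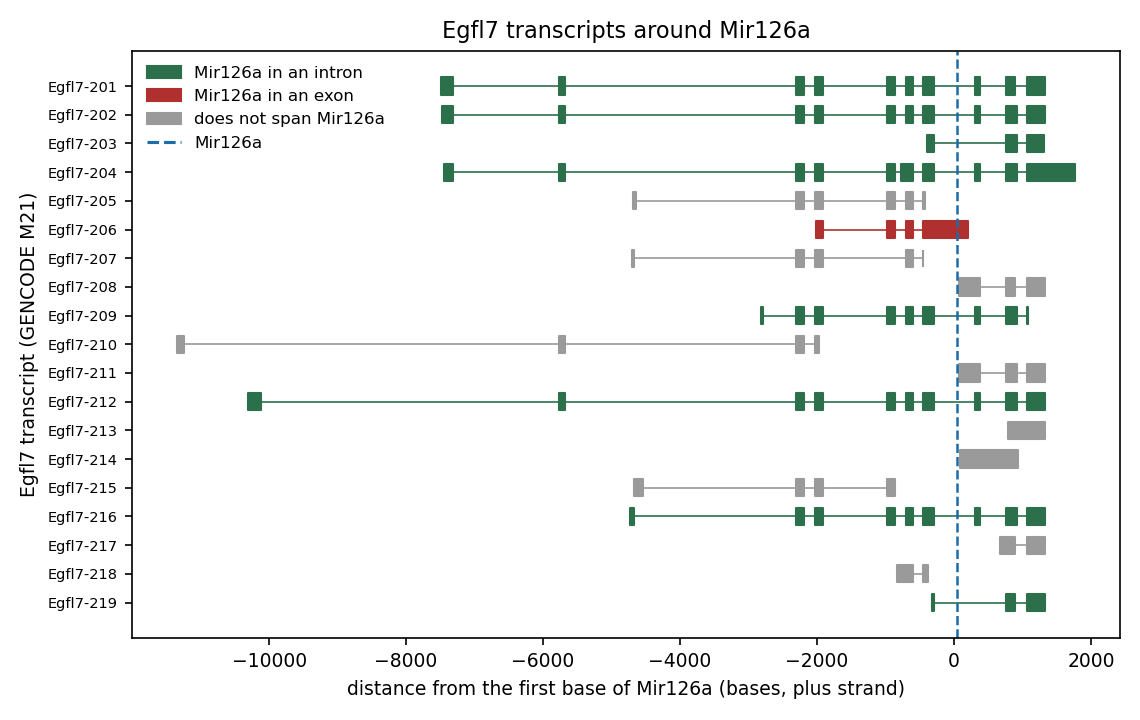
Exons (boxes) and introns (lines) of the 19 Egfl7 transcripts of GENCODE M21, by distance in bases from the first base of Mir126a, with Mir126a as the dashed line. In 8 transcripts (green) the line falls in an intron, in Egfl7-206 (red) in an exon, and 10 transcripts (grey) do not span it.

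On the strand of the gene, Mir126a had the most assigned reads of any miRNA gene in both libraries. It took 470778 of 3024662 assigned reads in replicate 1 and 328230 of 3464837 in replicate 2. Scaled to counts per 1000000 assigned reads (CPM, not divided by gene length), this was 155646 CPM in replicate 1 and 94732 in replicate 2, or 125189 ± 43073 (SD, n = 2). Replicate 1 was thus higher by CPM although it held fewer assigned reads. The exact 95% interval of the share was 15.52 to 15.61% in replicate 1 and 9.44 to 9.50% in replicate 2, for counting error only. PCR copies are not independent molecules, which these intervals do not take into account. Of all reads in the files, Mir126a took 6.57% and 3.87%. Reads mapping to several places, 27.5% and 29.4% of the files, are in no gene count. The rank and shares of Mir126a therefore hold among assigned reads. How many reads genes that share sequence with another gene lose in this way was not tested.

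The lead over the next gene differed between the libraries. In replicate 1 the next gene was Mirlet7g of the let-7 family of developmental timing regulators, at 81272 CPM, and Mir126a was 1.92-fold above it (1.91 to 1.92). In replicate 2 it was Mir378a, at 83205 CPM, and Mir126a was 1.14-fold above it (1.13 to 1.14). By the mean of both libraries the next 4 genes were Mir378a at 77516 ± 8046 CPM, Mirlet7g at 76270 ± 7073, Mirlet7i at 51891 ± 6620 and Mir143 at 47423 ± 5496. Mir126a was thus above each of them in both libraries, but its own SD of 43073 CPM was larger than any of theirs. The order of the next genes was not settled, since Mir378a and Mirlet7g changed places between the libraries. Levels were not tested, because the smallest p that exact sign flips of 2 libraries allow is 0.5 (two-sided).

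Mir126b, read from the other strand, was near the limit of detection. It had 7 reads in replicate 1 and 24 in replicate 2, which was 2.31 CPM (exact interval 0.930 to 4.77) and 6.93 CPM (4.44 to 10.3). Its mean was 4.62 ± 3.26 CPM, which gave it rank 337 among all genes. A level of 3 reads, the limit that a count of 0 would allow, is 0.992 CPM in replicate 1 and 0.866 in replicate 2. Both values of Mir126b were above it, but the interval of replicate 1 reached below it. That limit does not take stray reads of the other strand into account. The members of the pair thus held the first place and a place among barely detected genes.

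**Figure D2:**
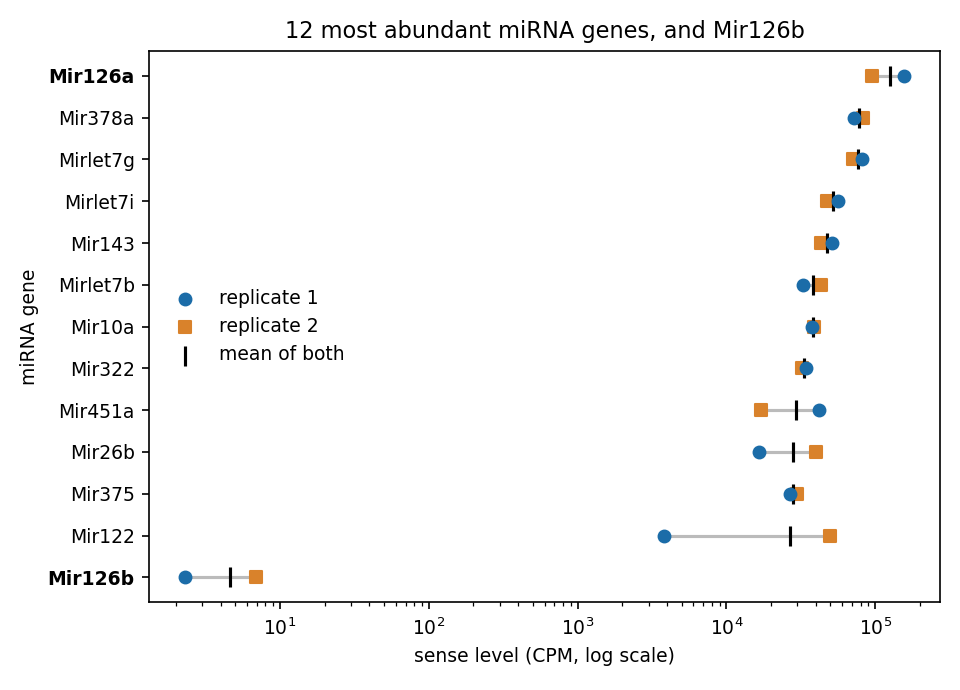
Sense level in CPM (log axis) of the 12 miRNA genes with the highest mean and of Mir126b, with a circle for replicate 1, a square for replicate 2 and a bar for their mean. Mir126a stands first in both libraries at 155646 and 94732 CPM, and Mir126b stands far below at 2.31 and 6.93 CPM.

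The deposited counts come in 3 columns, for reads of either strand, of the gene's strand and of the opposite strand, and the pair appears very differently in each. In the sense column Mir126a had 470778 and 328230 reads. In the antisense column of Mir126b there were 470772 and 328218, so the sense reads of Mir126a, less 6 and 12, recur there. In the either-strand column Mir126a had those 6 and 12 reads and Mir126b had 0 in both libraries. The antisense reads of Mir126a, 7 and 24, equalled the sense reads of Mir126b. Every column is thus accounted for by plus-strand reads shared by both annotations, a few plus-strand reads on Mir126a alone, and minus-strand reads.

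Without strand, the reads of the pair were set aside as ambiguous. The difference between the sense and the either-strand counts of the locus was 470779 reads in replicate 1 and 328242 in replicate 2. The files list 902374 and 794418 reads as ambiguous in that column, against 0 in the sense column. The locus therefore made up 52.2% and 41.3% of them, the largest part of any of 32 pairs of miRNA genes that overlap on opposite strands. All 32 pairs together accounted for 902365 and 794414 reads. By the either-strand column Mir126a would stand at 2.83 and 4.49 CPM, rank 356 and 318, which is 55059-fold and 21083-fold below its sense level, and Mirlet7g would be first. The order of the libraries also turned there: with 6 and 12 reads the ratio of replicate 2 to replicate 1 was 1.59 (0.552 to 5.16; exact binomial test, adjusted p = 0.576), a setting chosen after the data were seen.

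Other pairs had the same arrangement. Of the 20 most abundant genes, Mir126a, Mir378a (opposite Gm25301) and Mir451a (opposite Mir451b) kept less than 1% of their sense reads in the either-strand column. Mir378a and Mir451a are covered by their partner over their whole length and had 0 reads there in both libraries, whereas Mir126a, covered over 58 of its 73 bases, kept 6 and 12. The next pairs by level, Mir30e with Mir30f and Mir191 with Gm24083, also had 0 such reads. In 18 pairs the leading gene reached 100 CPM. The partner had no sense read in 12 of those 18, and Mir126b was a partner with reads, as in 6 of the 18.

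**Figure D3:**
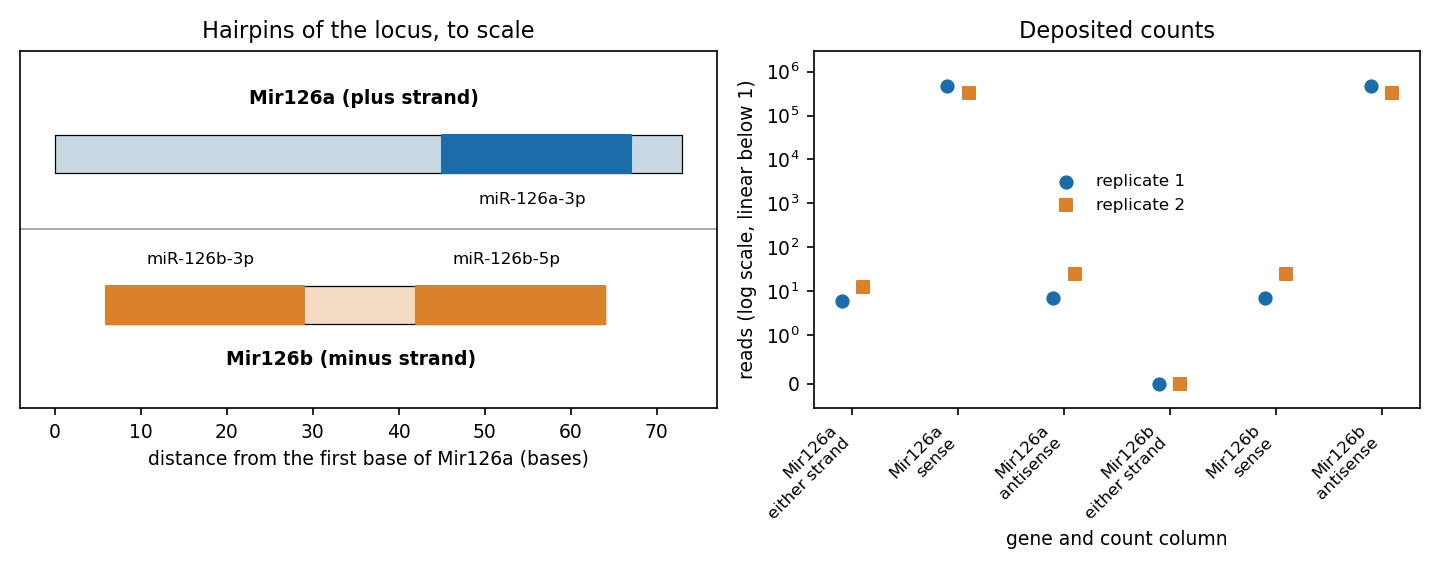
Left, the hairpins of Mir126a (plus strand) and Mir126b (minus strand) with their listed mature miRNAs, to scale, by distance in bases from the first base of Mir126a. Right, the reads in the 3 deposited columns for each gene (log axis, linear below 1), where the sense reads of Mir126a, 470778 and 328230, reappear as antisense reads of Mir126b and are missing from the either-strand column.

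Minus-strand reads at the locus were set beside the opposite-strand reads of other genes, a comparison chosen after the data were seen. Mir126b made up 0.00149% of the reads of the locus in replicate 1 (exact interval 0.000598 to 0.00306) and 0.00731% in replicate 2 (0.00468 to 0.0109). Over 1721 miRNA genes with no annotated gene on the other strand, opposite-strand reads were 0.00656% (0.00546 to 0.00783) and 0.0086% (0.00746 to 0.00986). At that rate the locus would hold 30.9 and 28.2 minus-strand reads, against the 7 and 24 seen. The interval of the locus thus lay below this background in replicate 1 and contained it in replicate 2. The intervals cover counting error of the reads and not the spread between genes.

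That background rests largely on Mir203, which had 73 of its 124 opposite-strand reads in replicate 1 and 158 of 205 in replicate 2. Without Mir203 it was 0.0027% (0.00201 to 0.00355) and 0.00198% (0.00145 to 0.00263), which would give 12.7 and 6.49 reads at the locus. Against this the interval of replicate 1 overlapped, whereas the 0.00731% of replicate 2 was higher and the intervals did not overlap. Of 29 genes with 10000 or more sense reads in each library and no opposite gene, 25 and 26 had no opposite-strand read, and 4 and 1 had a larger share than the locus. The largest share was that of Mir130a, 0.0337% and 0.0187%. Mirlet7g had 0 opposite-strand reads in both libraries, which allows a share of up to 0.00122% and 0.00121%. The comparison for replicate 2 thus changes with Mir203, and transcripts of Mir126b and stray reads of the other strand cannot be told apart from these counts.

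**Figure D4:**
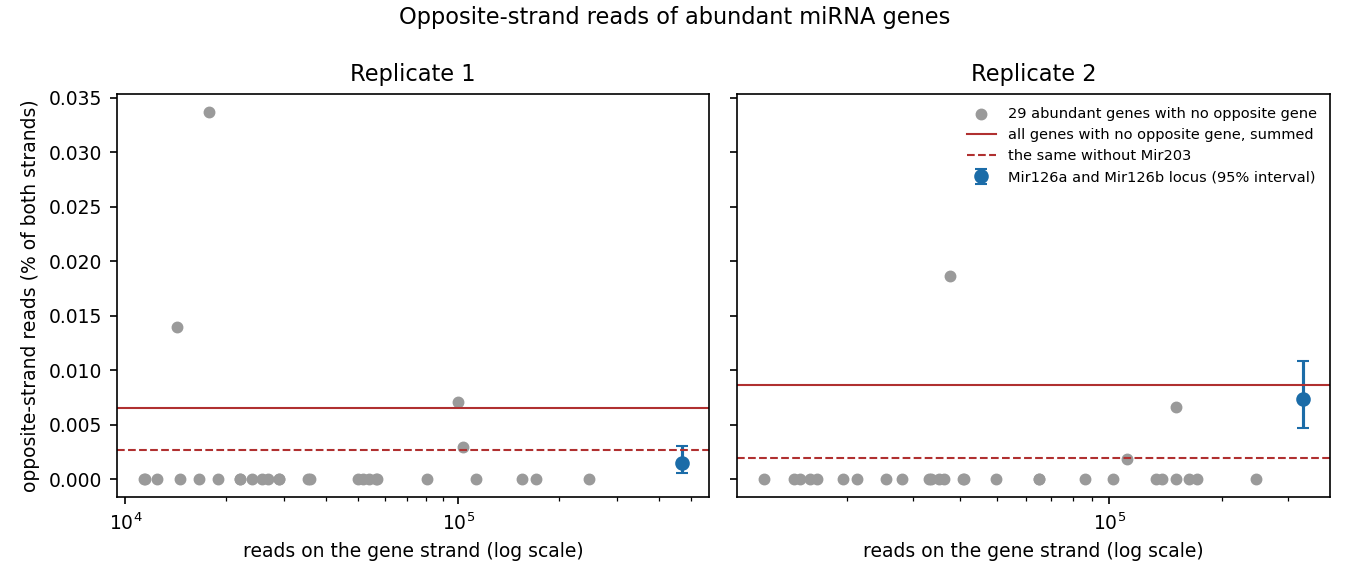
Opposite-strand reads as a percentage of the reads of both strands, against reads on the gene strand (log axis), for the Mir126a and Mir126b locus (blue, with its exact 95% interval) and for 29 abundant miRNA genes with no opposite gene (grey), in each library. The solid line is the sum over all 1721 such genes and the dashed line the same without Mir203: the locus lies below both lines in replicate 1 and between them in replicate 2.

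The libraries differed in both members, and in opposite directions. The ratio of replicate 2 to replicate 1 was 0.609 for Mir126a (exact interval 0.606 to 0.611), that is 1.64-fold lower in replicate 2. For Mir126b it was 2.99 (1.25 to 8.23). By an exact two-sided conditional binomial test with Benjamini-Hochberg adjustment both passed, with an adjusted p of 0.0207 for Mir126b and, for Mir126a, a value too small for the computer to hold and written as 0. That test compares the reads of these libraries, not conditions, and 229 of 413 genes tested passed it (55.4%), with 110 lower in replicate 2 (26.6%) and 119 higher (28.8%). Passing is therefore common at this depth, and the size of the difference is the more useful value. Relative to the reads of Mir126a, Mir126b was 4.92-fold higher in replicate 2 (2.06 to 13.5). Both ratios of Mir126b rest on 7 and 24 reads, which cannot be told apart from stray reads of the other strand. They are therefore not read as a change in transcription of Mir126b.

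Abundant genes differed by more than Mir126a in both directions. Of 80 other genes at 1000 CPM or more, 13 had a log2 ratio of larger size, 9 of them higher in replicate 2, the most Mir122 at 3.71, and 4 lower. The 4 lower genes were Mir107 at 5.11-fold lower in replicate 2, Mir142 at 2.69-fold, Mir451a at 2.44-fold and Mir10b at 1.76-fold. The median log2 ratio of the 80 was 0.00, and they ranged from -2.35 to 3.71, against -0.72 for Mir126a. The 5 genes of that level with the nearest log2 ratio were Mir342, Mir146, Mir10b, Mir320 and Mir15b, which differed from it by 0.06, 0.07, 0.10, 0.13 and 0.15. With 2 libraries this likeness rests on a single difference and is a description.

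**Figure D5:**
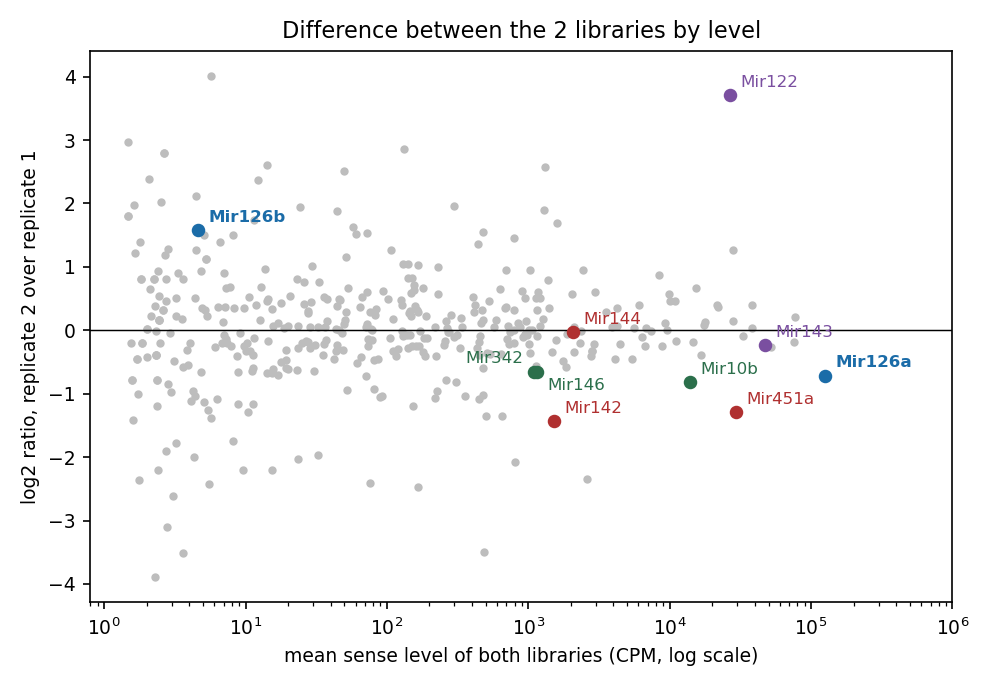
Log2 ratio of replicate 2 to replicate 1 against the mean sense level in CPM (log axis) for the miRNA genes tested (grey). Mir126a and Mir126b are in blue, and Mir451a, Mir144 and Mir142 of blood cells in red. Mir10b, Mir342 and Mir146, near Mir126a in ratio, are in green, and Mir122 of hepatocytes and Mir143 of smooth muscle in violet. Left grey are Mir486, Mir150 and Mir155 of blood cells, Mir223, which was higher in replicate 2, and Mir145a of smooth muscle. Mir126a lies at the far right at -0.72, above Mir451a and Mir142, and Mir126b lies at the low end at 1.58.

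Mir126a is large enough to move the scale on which the other genes are read. Without it 2553884 assigned reads were left in replicate 1 and 3136607 in replicate 2, which is 84.4% and 90.5% of the totals. Dividing by those totals lowered the log2 ratio of every other gene by 0.10. The other genes that passed were then 94 higher and 136 lower in replicate 2, against 119 higher and 109 lower with Mir126a in the total. Of 412 other genes tested, 24 gained a call, 22 lost it and 3 changed direction. Mir126a itself was at a ratio of 0.568 (0.565 to 0.570) to the other genes.

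Markers of cells that wrap or fill vessels were read beside Mir126a; the endothelial list held no gene but the pair itself. The miRNAs of smooth muscle and pericytes, the cells that wrap vessels, summed to 5.24% of assigned reads in replicate 1 and 4.46% in replicate 2. Of 2 members tested, 1 was lower in replicate 2 (26.6% of all genes tested were), Mir143 at 51310 and 43537 CPM, while Mir145a of the same cluster was at 1064 and 1062 CPM and did not pass. Mir145b was at 0. The list ratio of 0.852 was thus closer to 1 than that of Mir126a. The difference between these was not tested.

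The miRNAs of red blood cells summed to 4.40% and 1.92%, with 2 of 3 members lower in replicate 2 and 0 higher, where 26.6% of all genes tested were lower and 28.8% higher. Mir451a was at 41828 and 17126 CPM and Mir486 at 37.0 and 23.7, whereas Mir144 of the Mir451a cluster was at 2094 and 2053 and did not pass. Those of white blood cells and platelets summed to 0.347% and 0.171%, with 3 of 4 members lower and 1 higher, against the same 26.6% and 28.8%. Mir142 was at 2223 and 825 CPM, Mir150 at 729 and 560, and Mir155 at 483 and 236, while Mir223 was higher in replicate 2, at 31.1 and 89.5. No member of either blood list was at 0. The median log2 ratio was -0.65 in the red cell list and -0.71 in the white cell list, against 0.03 over all 413 genes tested. Of these 7 blood miRNAs 5 were thus lower in replicate 2, as Mir126a was, Mir144 did not pass and Mir223 was higher. With so few genes this is a description, and their part in the result was not tested.

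Other miRNAs linked to vessel growth, which many cell types make, went in both directions. Of 18 such genes, 11 were higher in replicate 2, 6 were lower, and Mir24-1 did not pass, where 28.8% of all genes tested were higher and 26.6% lower. They summed to 9.97% and 12.3% of assigned reads, with a median log2 ratio of 0.31. Mir23b was at 19151 and 24782 CPM, Mir23a at 18705 and 24776, and Mir139 at 11832 and 18737, all higher in replicate 2. Mir322, the most abundant of the list, was at 34036 and 32072 CPM and 1.06-fold lower in replicate 2. Mir221, named after its values were seen, was at 635 and 314 CPM, 2.02-fold lower, which is more than the 1.64-fold of Mir126a. The list was written with earlier results of these data known, and its difference from Mir126a was not tested.

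Lists for hepatocytes, neuroendocrine cells and striated muscle were read as well. Mir122 of hepatocytes took 0.379% and 4.95% of assigned reads, 13.1-fold higher in replicate 2. With Mir122, Mir451a and Mir26b left out of the total the ratio of Mir126a was 0.639 (0.636 to 0.642), still lower in replicate 2. Each of the genes left out itself differed between the libraries, Mir26b at 16497 and 39787 CPM. The neuroendocrine list, which the adrenal medulla should hold, was present at 3.11% and 3.43%, led by Mir375 at 26615 and 29592 CPM. Of its 4 members 2 were higher in replicate 2 (28.8% of all genes tested were) and 2 did not pass. Striated muscle miRNAs summed to 0.000661% and 0.00104%, with 3 of 7 members at 0 in both libraries and 0 of 1 tested passing. These low sums cannot show that muscle miRNAs were absent, because a gene whose sequence recurs elsewhere can lose reads from its count. How far this lowered the members of the muscle list was not tested.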

How the data were processed

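The deposited counts are whole reads per annotated miRNA gene, 1 file per library, not normalized. They were made on mm10 with annotation M21, per the notes deposited by the authors. The sources used here name neither aligner nor counter. Each count file has 4 summary rows and 3 count columns with no header. Their meaning was read from the values: the first column equalled the sum of the other 2 at all 1721 genes with no opposite-strand gene. That sum cannot tell the other 2 apart and holds trivially at genes with no reads. At those 1721 genes the second column held 1888947 and 2383566 reads and the third 124 and 205. The second was read as the gene's strand. The summary rows, 57.8% and 59.1% of the reads, stayed out of totals and tests. Files held 7170915 and 8479789 reads.

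Sense counts were scaled to CPM. Each gene with 10 or more reads in both libraries together was tested by an exact two-sided conditional binomial test, with Benjamini-Hochberg adjustment at 0.05 over all genes. Shares have exact Clopper-Pearson intervals and ratios exact conditional intervals, both at 95% and for counting error only. No model across replicates was fitted, since there is 1 group. The test was checked on simulated data. Alternatives used edgeR TMM and DESeq2 size factors, the unstranded column, other totals and other filters. Hairpins of the pair share no 20-base stretch with a miRNA gene elsewhere, unlike 1087 of 2202 genes.

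The genes named are the pair, the 4 next in level, at most 5 overlapping pairs led by a gene of 100 CPM or more, the 5 nearest in ratio at 1000 CPM or more, up to 4 members of each marker list and genes sharing a seed. Mir203, Mir130a, Mir221, Mirlet7g as a background gene, and the genes with a lower ratio were named after their values were seen. Mir26b was named only as a gene left out of a total. The members and lists were chosen with earlier results of these data known. ViennaRNA 2.7.2 folded the hairpins, edgeR 4.0.16 and DESeq2 1.42.0 ran in R 4.3.3, and SciPy 1.17.1 gave the tests, with pandas 2.3.3 and NumPy 2.4.6 in Python 3.11.15 and figures by matplotlib 3.10.9.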

Additional observations from a re-analysis of the deposited data

Results flagged for a closer look

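Reads that no gene holds appeared in both files, with no control samples to set them against. Replicate 1 had 27.5% of its reads mapping to several places, and replicate 2 had 29.4%. A further 6.79% and 6.65% fell in no annotated feature. With 2 libraries in 1 group, a sample far from the others could not be looked for.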

How the results depend on the processing

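Of 34 alternatives, 28 kept the call, the level within the spread or the number of genes called within 1.5 times. The level of Mir126a was 52179 CPM over all reads of the files and 3.66 CPM in the unstranded column, where its ratio turned to 1.59, and Mir126b was at 0. That column leaves out reads on both annotations by its construction. Each library alone gave 94732 to 155646 CPM for Mir126a and 2.31 to 6.93 CPM for Mir126b. With 2 libraries each lies within the SD of their mean by construction, so those agreements were fixed in advance. The antisense column of Mir126b recounts nearly the same reads as the sense column of Mir126a, so its agreement was fixed as well. Under the other totals, edgeR TMM and DESeq2 size factors the ratio of Mir126a stayed between 0.568 and 0.639 and that of Mir126b between 2.79 and 4.92, with exact adjusted p from 0.000106 to 0.0318 for Mir126b. The number of genes called hides their direction: 119 were higher and 110 lower, but 94 and 136 with Mir126a out of the total, with 49 of 412 calls changed, and 74 and 139 in the unstranded column. The background of opposite-strand reads moved without Mir203, to 0.0027% and 0.00198%. No paired analysis was possible because there is 1 group. At 7 and 24 reads, depth limits every value of Mir126b, while for Mir126a the spread between 2 libraries is the limit.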
